A study of Homo sapiens with 12 samples.

Results

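The response of Jurkat cells to an induced short hairpin RNA (shRNA) against TAL1 was set against their response to GSK-J4, gene by gene, in 8 of the 12 mRNA libraries of the study. Jurkat is an established human T-cell acute lymphoblastic leukaemia line. The quantity reported is the response difference: the log2 fold change of TAL1-KD over TAL1-control minus the log2 fold change of J4-2uM over J4-control. A positive or "higher" difference means that the gene moved further up, or less far down, in the TAL1-labelled comparison. The 8 libraries are those that the sample labels place in these 4 groups, and 18206 genes had enough reads in the 8 libraries to be tested.

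TAL1-control and TAL1-KD are 2 libraries each of a Jurkat line that carries a doxycycline-inducible shRNA against TAL1, grown in Tet-free serum with blasticidin and G418. TAL1-KD was given 5 µg/ml doxycycline for 72 h, and TAL1-control was given none. J4-control and J4-2uM are 2 libraries each of Jurkat cells in ordinary serum without selection, given DMSO or 2 µM GSK-J4 for 72 h. The remaining 4 libraries, UTX-control and UTX-KD, come from a line with an inducible shRNA against UTX, handled like the TAL1 line, and serve below as a separate description. The 2 comparisons share no library, but line, medium, selection and agent differ between them and cannot be told apart. Doxycycline was present in TAL1-KD and absent from its control, and doxycycline on cells without an shRNA was not analysed here. The labels do not say whether replicates came from separate cultures, so the p-values measure only the spread between these libraries.

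TAL1 is a basic helix-loop-helix transcription factor of blood stem cells that T cells normally silence. In T-cell leukaemia it binds DNA with E proteins, LMO and GATA factors and keeps a leukaemic gene program running. UTX, encoded by KDM6A, and its relatives KDM6B and UTY belong to the JmjC family, in which KDM6A and KDM6B remove the repressive methyl marks from lysine 27 of histone H3. GSK-J4 is a cell-permeable small-molecule inhibitor of KDM6 demethylases that also acts on some other JmjC enzymes. The comparison asks where cells with an induced shRNA aimed at the transcription factor and cells given the demethylase inhibitor move the same genes alike and where they move them apart.

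Depth ran from 55524079 to 75547934 counted reads over the 8 libraries. The summed level of 12 T-cell marker genes, of which 11 were in the tables, was 2466 to 4046 per 1000000 counted reads in each library. It was 3413 to 3463 in TAL1-control, 3764 to 4046 in TAL1-KD, 2466 to 2494 in J4-control and 2523 to 2592 in J4-2uM. All marker values in this paragraph are on that scale, without TMM. Elsewhere, CPM means counts per 1000000 TMM-scaled reads. Markers of B cells summed to 39.3 to 101 CPM, of myeloid cells to 1.46 to 5.42, of erythroid cells and megakaryocytes to 13.4 to 23.2, and of fibroblasts and epithelium to 6.10 to 22.8, and none of those in the tables was at 0 in all 8 libraries. Between J4-control and J4-2uM the B-cell sum went from 39.3 to 39.6 up to 92.2 to 101. The myeloid sum went from 2.59 to 2.73 up to 5.02 to 5.42. The erythroid and megakaryocyte sum went from 13.4 to 15.3 up to 18.8 to 19.8, and the fibroblast and epithelial sum from 10.7 to 11.0 up to 21.7 to 22.8. CD79A made up nearly all of the B-cell sum, at 37.3 in both J4-control libraries and 97.4 and 88.8 in J4-2uM. Between TAL1-control and TAL1-KD these 4 sums were lower after doxycycline on this scale. They stood at 61.7 to 62.5, 1.46 to 1.70, 15.3 to 15.5 and 6.10 to 7.06 in TAL1-KD. In the control they stood at 75.7 to 76.0, 1.88 to 2.42, 21.8 to 23.2 and 10.8 to 11.3. Their part in the results below was not tested. The SD of log2 levels between replicates was 0.21 in TAL1-KD and 0.087 to 0.11 in the other 3 groups, so the TAL1-labelled comparison is the less precise one.

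Whether the libraries labelled TAL1-KD held less TAL1 mRNA depended on the scaling. TAL1 stood at 273 and 277 CPM in TAL1-control, 252 and 278 in TAL1-KD, 188 and 187 in J4-control and 119.8 and 116 in J4-2uM. On this scale the TAL1-KD libraries overlapped their controls, while both J4-2uM libraries lay below theirs. On the log2 scale TAL1 changed by -0.074 (SE 0.085) between its own libraries, without passing the test, and by -0.66 (SE 0.032) between those of GSK-J4, a difference of 0.62 (SE 0.09, edgeR adjusted p 2.1e-04). Per 1000000 counted reads, without TMM, TAL1 stood at 270.4 and 267 in TAL1-control and at 230.0 and 232 in TAL1-KD, so that both TAL1-KD libraries lay below both controls. Fitted on library totals TAL1 fell by 0.22 (SE 0.063, edgeR adjusted p 0.026) in TAL1-KD, where the median change of all genes was -0.17, and it fell by 0.49 with GSK-J4, where that median was 0.18. Protein was not measured, so the comparison is named here by its label. KDM6B, an H3K27 demethylase, rose in both, by 0.93 in the TAL1-labelled comparison and by 0.39 with GSK-J4. KDM6A stood at 56.7 and 57.8 CPM in TAL1-control, 65.9 and 67.2 in TAL1-KD, 39.8 and 39.3 in J4-control and 53.1 and 53.8 in J4-2uM. It rose by 0.44 with GSK-J4, and its TAL1-labelled change of 0.19 was not called. For KDM6A the difference was -0.22 (SE 0.077, edgeR adjusted p 0.033) and for its Y-linked relative UTY it was -0.23 (SE 0.08, adjusted p 0.031). Neither call held when any 1 of the 4 control libraries or of the 2 J4-2uM libraries was left out: edgeR adjusted p was then 0.077 to 0.14 for KDM6A and 0.057 to 0.15 for UTY.

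Of all genes tested, 53.9% responded differently. The difference was called higher for 4791 genes, 26.3% of those tested, and lower for 5019, or 27.6% (edgeR quasi-likelihood test, Benjamini-Hochberg adjusted p under 0.05). At least 1 unit on the log2 scale separated the responses for 1397 of the higher and 2289 of the lower genes. Levels here are TMM-scaled shares of counted mRNA reads from bulk cultures, in which fewer cells of a kind and less RNA per cell cannot be told apart. The balance of the directions depended on the scaling: with library totals in place of TMM factors the median difference over all genes went from -0.034 to -0.38, and 2507 genes were called higher and 7692 lower, or 24.6% and 75.4% of the calls against 48.8% and 51.2%. Differences below are relative to the TMM scaling, and list directions that turn with that shift are named. Counts of list members with a called difference are to be read against the 26.3% higher and 27.6% lower of all genes tested. Where a pair of changes is given for a gene, both are log2 fold changes, the first TAL1-labelled and the other with GSK-J4; since each comes from its own fit, their gap can depart slightly from the fitted difference.

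Of the 16573 genes tested in both comparisons alone, 1315 (7.93%) rose in the TAL1-labelled comparison and fell with GSK-J4, and 1311 (7.91%) did the reverse. A further 1196 (7.22%) moved the same way in both but further in the TAL1-labelled comparison, and 752 (4.54%) moved the same way but further with GSK-J4. Another 1387 genes (8.37%) with a called difference were called in the TAL1-labelled comparison and not with GSK-J4, and 3436 (20.7%) the other way round. The own comparisons called 4424 genes higher and 4696 lower for TAL1 (26.3% and 27.9% of 16829), and 6794 higher and 6616 lower for GSK-J4 (37.9% and 36.9% of 17907). Across genes, which are not independent replicates, the 2 log2 fold changes correlated with Pearson's r of 0.29 and Spearman's rho of 0.25. Single control libraries weighed on these counts: without TAL1-control replicate 1 the opposite calls numbered 644 and 805, and without replicate 2 they numbered 744 and 871. Without those same libraries the TAL1-labelled comparison called 2431 and 2657 genes higher, and without replicate 1 it called 3094 lower. Genes that moved further with GSK-J4 then numbered 284 and 269, but 1385 and 1568 without TAL1-KD replicates 1 and 2. Genes that moved further in the TAL1-labelled comparison numbered 2183 without TAL1-KD replicate 1, and 728 and 723 without J4-control replicates 1 and 2.

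**Figure D1:**
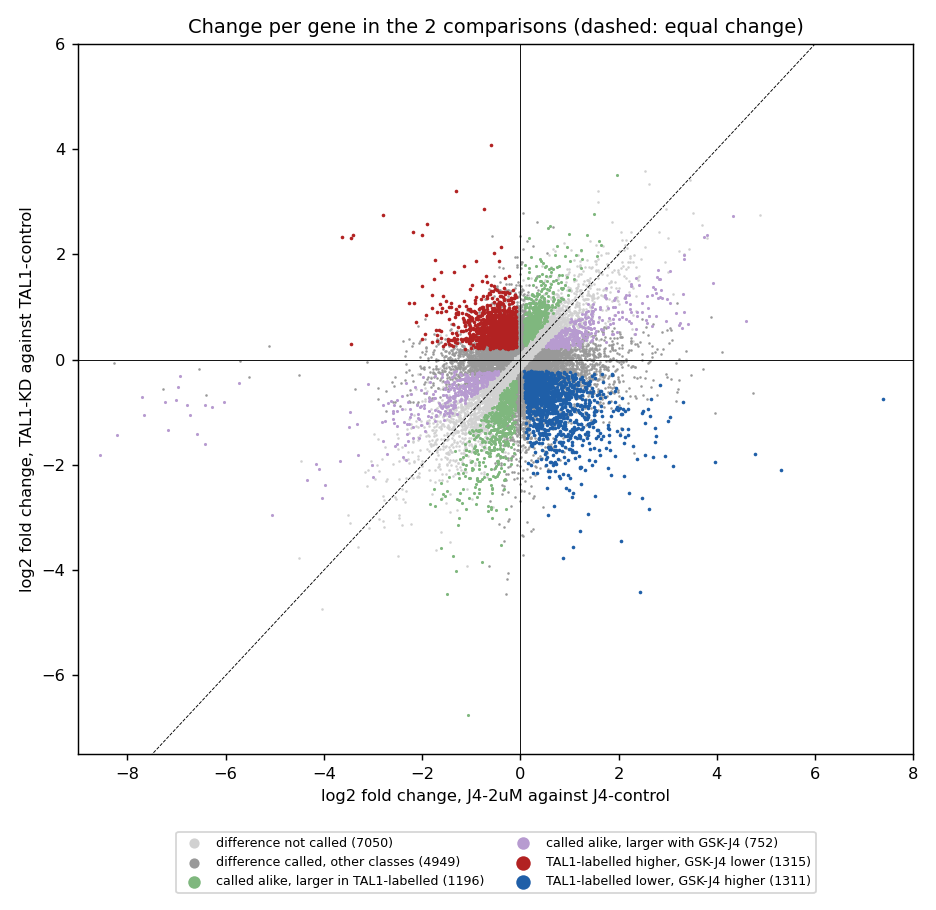
Log2 fold change per gene with GSK-J4 (x axis) and in the TAL1-labelled comparison (y axis) for the 16573 genes tested in both, coloured by class. The 1315 red genes (upper left) and 1311 blue genes (lower right) were called in opposite directions, and genes on the dashed line changed equally.

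The 2 control groups did not start from the same levels. Both J4-control libraries lay above both TAL1-control libraries for 1042 of the 1315 genes (79.2%) that rose in the TAL1-labelled comparison and fell with GSK-J4, and below them for 171. For the reverse class they lay below for 974 of 1311 (74.3%) and above for 222. Over all genes tested the shares were 42.4% above and 41.2% below. The control libraries enter the difference themselves, so these counts describe the data and are no test. The values per library below show such unequal starting levels gene by gene.

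Opposite calls were ranked by the smaller, in absolute size, of a gene's pair of log2 changes, at a mean normalised count of at least 50. Outside the MTRNR2L genes the first by that measure with TAL1 higher was PRDX1, a peroxiredoxin that reduces hydrogen peroxide. PRDX1 stood at 144 and 159 CPM in TAL1-control, 461 and 508 in TAL1-KD, 473 and 477 in J4-control and 162 and 147 in J4-2uM. The treated libraries lay above their controls in the first comparison and below them in the second, with no overlap in either. The log2 fold changes were 1.66 (SE 0.097) and -1.61 (SE 0.041), a difference of 3.30 (SE 0.11, edgeR adjusted p 2.1e-08). In the other direction, TKTL1, which encodes a transketolase-like protein, stood at 10.8 and 10.9 CPM in TAL1-control, 1.02 and 0.984 in TAL1-KD, 6.68 and 6.24 in J4-control and 27.8 and 25.0 in J4-2uM. It fell by 3.45 in the TAL1-labelled comparison and rose by 2.04 with GSK-J4, a difference of -5.46 (SE 0.15). SPOCK1, a secreted proteoglycan gene, did the same at a low level, with 1.55 and 1.32 CPM in TAL1-control, 0.475 and 0.358 in TAL1-KD, 0.53 and 0.743 in J4-control and 2.02 and 1.97 in J4-2uM. GDAP1L1, VGLL3, CCDC148, SRRM3, TMOD1 and LOXL3 completed the 8 genes with the strongest calls of that kind, with differences from -5.43 to -3.52. GDAP1L1 had 3 and 4 reads in J4-control and VGLL3 had 6 and 4, so their rises with GSK-J4 rest on few reads.

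Among other genes with a lower difference, several had changed little in the TAL1-labelled comparison and much with GSK-J4. CDH3, which encodes the adhesion protein P-cadherin, stood at 1.44 and 1.41 CPM in TAL1-control, 1.30 and 1.27 in TAL1-KD, 0.106 and 0.195 in J4-control and 1.86 and 2.32 in J4-2uM. Its log2 fold change was -0.17 in the TAL1-labelled comparison, which did not pass the test, and 3.72 with GSK-J4, where J4-control held 6 and 15 reads. GOLGA7B, the neuronal microtubule gene MAP2, the presynaptic scaffold gene PCLO, the cytokine gene CLCF1, LINC01749 and the sodium channel subunit gene SCN3B showed the same form, with differences of -3.93, -3.31, -3.16, -3.28, -3.73 and -3.00. PRKAA2, a catalytic subunit of the energy sensor AMP kinase, had 15 and 2 reads in TAL1-control, 0 and 0 in TAL1-KD, 72 and 105 in J4-control and 149 and 122 in J4-2uM. With so few reads in the TAL1 line, no fold change is given for it.

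**Figure D2:**
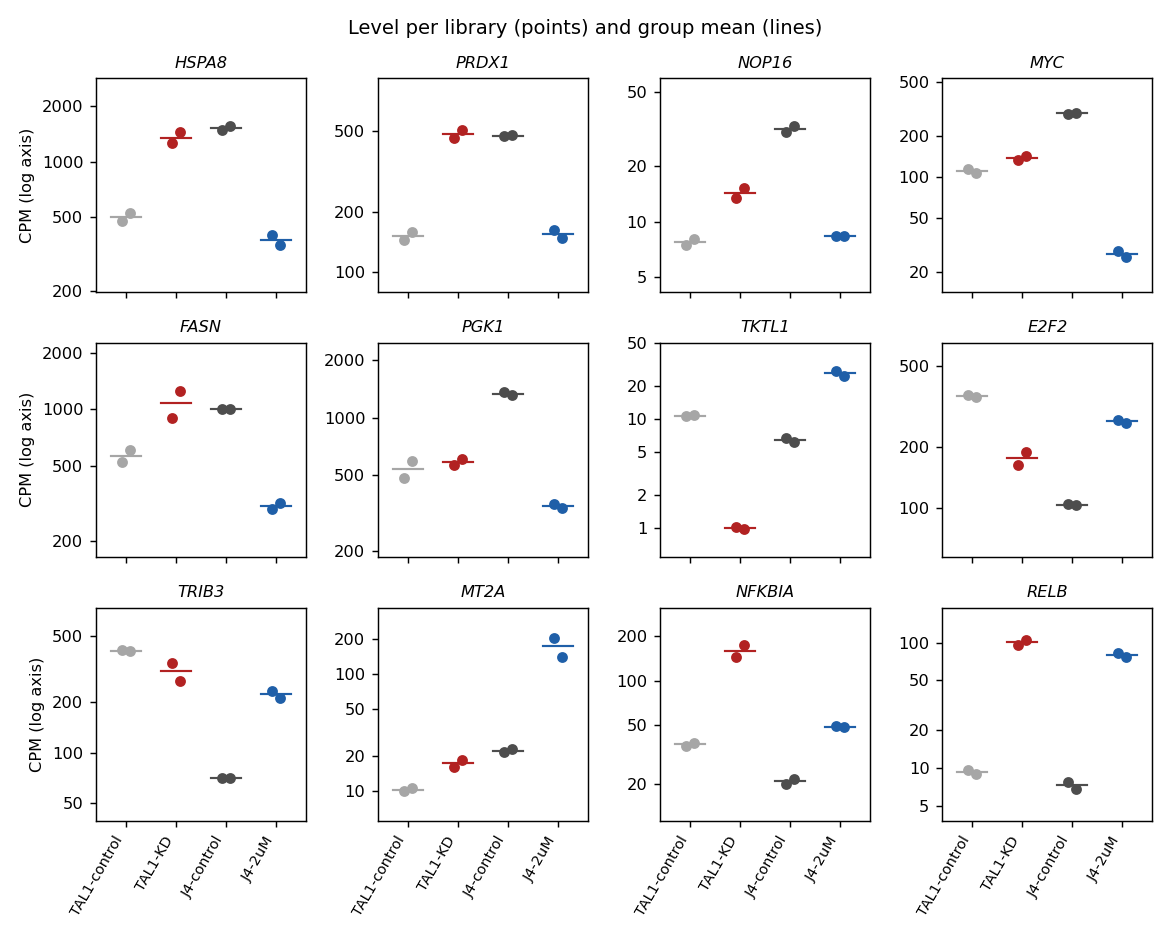
Level per library in CPM on log axes for 12 named genes, with 2 libraries (points) and the mean (line) per group. HSPA8, PRDX1, NOP16, MYC and FASN rose in TAL1-KD and fell in J4-2uM, TKTL1, E2F2 and TRIB3 did the reverse, and RELB rose alike in both.

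Heat shock chaperones separated the responses widely. The list tested held 16 chaperones and 2 regulators. Of these 18 genes, 15 had a higher difference and 0 a lower one, against 26.3% and 27.6% of all genes. Opposite calls numbered 9, against 7.93% of all genes. The median difference of the list was 1.34 (all genes -0.034), from medians of 0.94 in the TAL1-labelled comparison and -0.60 with GSK-J4. HSPA8, the constitutive cytosolic HSP70, stood at 478 and 525 CPM in TAL1-control, 1260.3 and 1435 in TAL1-KD, 1475 and 1559.5 in J4-control and 400.0 and 357 in J4-2uM. Both TAL1-KD libraries lay above their controls and both J4-2uM libraries below theirs, 2.64-fold the control level in the first comparison and 0.251-fold in the other, a log2 difference of 3.43 (SE 0.13, edgeR adjusted p 5.4e-08). HSPE1, the small subunit of the mitochondrial chaperonin, stood at 28.7 and 31.3 CPM in TAL1-control, 66.2 and 77.3 in TAL1-KD, 107 and 112 in J4-control and 31.6 and 31.2 in J4-2uM. HSPH1, a nucleotide exchange factor for HSP70, stood at 73.4 and 74.9 CPM in TAL1-control, 167 and 157 in TAL1-KD, 230.5 and 241 in J4-control and 85.3 and 78.4 in J4-2uM. DNAJA1, an HSP40 co-chaperone, stood at 163 and 170.0 CPM in TAL1-control, 332 and 344 in TAL1-KD, 405 and 420.5 in J4-control and 164 and 146 in J4-2uM. All 3 rose in TAL1-KD and fell with GSK-J4, with differences of 3.06, 2.66 and 2.43. HSPD1, the partner of HSPE1, had a difference of 2.12 that came from a fall of 1.92 with GSK-J4, since its change of 0.17 in the TAL1-labelled comparison did not pass the test.

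Not all of the list followed that pattern, since 4 of the 16 chaperones and the 2 regulators rose with GSK-J4. A stress-induced chaperone and a regulator are described here. HSPA6, a strictly inducible HSP70 that was singled out after its values were seen, stood at 0.768 and 1.38 CPM in TAL1-control, 5.06 and 9.93 in TAL1-KD, 1.64 and 1.36 in J4-control and 18.4 and 15.2 in J4-2uM. It rose in both comparisons, by 2.79 and 3.51, and its difference of -0.68 (95% interval -1.74 to 0.38) did not pass the test. The heat shock regulator HSF2 rose in both, with a difference of 0.16 that was not called. The 250 bases before the RefSeq start of 3 of these genes are shown because their responses differ while all hold a match to a heat shock element pair, GAANNTTC or TTCNNGAA on either strand, in capitals (GRCh38.p14). HSPA8 lies at chr11:123062137-123062386 (minus strand), HSPA6 at chr1:161524290-161524539 (plus strand) and DNAJA1 at chr9:33025023-33025272 (plus strand).
HSPA8: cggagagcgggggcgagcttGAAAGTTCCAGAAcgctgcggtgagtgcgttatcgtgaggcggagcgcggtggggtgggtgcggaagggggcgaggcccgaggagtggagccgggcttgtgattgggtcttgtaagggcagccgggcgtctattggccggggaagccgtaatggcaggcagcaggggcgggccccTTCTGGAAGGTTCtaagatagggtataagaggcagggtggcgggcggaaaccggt
HSPA6: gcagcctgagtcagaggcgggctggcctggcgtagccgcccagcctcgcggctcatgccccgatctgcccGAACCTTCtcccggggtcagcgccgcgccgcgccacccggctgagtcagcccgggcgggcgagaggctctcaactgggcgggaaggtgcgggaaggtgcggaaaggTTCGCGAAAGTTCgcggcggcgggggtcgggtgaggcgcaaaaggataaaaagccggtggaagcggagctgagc
DNAJA1: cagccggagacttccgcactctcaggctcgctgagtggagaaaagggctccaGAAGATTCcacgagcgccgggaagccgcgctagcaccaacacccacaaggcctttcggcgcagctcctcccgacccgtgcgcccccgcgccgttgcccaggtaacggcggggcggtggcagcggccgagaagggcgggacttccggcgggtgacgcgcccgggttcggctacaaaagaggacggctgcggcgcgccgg
The pair, a motif searched after the values were seen, had 4 matches before HSPA8, 3 before HSPA6 and 1 before DNAJA1, counting matches that overlap. It occurred in 7 of the 17 chaperone promoters found in the RefSeq table (41.2%) and in 11.7% of all 27305 promoters of that table. These matches are letters in a window and say nothing of binding.

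The CCT chaperonin, which folds actin and tubulin, had a higher difference in 8 of 8 subunits, with a median of 1.42. All 8 fell with GSK-J4, with a median log2 change of -1.12, and 4 rose in TAL1-KD. CCT6A stood at 215 and 224 CPM in TAL1-control, 254 and 248 in TAL1-KD, 392 and 402 in J4-control and 166 and 165 in J4-2uM. It fell by 1.26 with GSK-J4, and its change of 0.17 in the TAL1-labelled comparison did not pass the test. CCT3, CCT4, CCT5 and CCT7 were called in opposite directions. The heat shock element pair was found before 1 of 7 CCT genes in the table (14.3%).

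Ribosome assembly genes separated without exception among those tested. All 29 nucleolar and ribosome biogenesis genes tested had a higher difference, with a median of 1.47 and a range from 0.68 to 2.81. All 29 fell with GSK-J4 (median -1.14), while in the TAL1-labelled comparison 18 rose and 2 fell (median 0.38). NOP16, a nucleolar assembly protein, stood at 7.51 and 8.08 CPM in TAL1-control, 13.5 and 15.2 in TAL1-KD, 30.6 and 32.9 in J4-control and 8.31 and 8.31 in J4-2uM. Its change was 0.85 in TAL1-KD and -1.93 with GSK-J4, a difference of 2.81 (SE 0.12). GNL3, known as nucleostemin, and MYBBP1A and NOLC1, which take part in ribosomal RNA synthesis, also had opposite calls, with differences of 2.06, 2.22 and 1.85. In WDR43, a small-subunit processing factor, the difference of 1.71 came from GSK-J4, since its TAL1-labelled change was 0.094 and not called. In J4-control all 29 genes lay above TAL1-control in both libraries.

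MYC, a transcription factor that drives ribosome production, fell steeply with GSK-J4 and rose slightly in TAL1-KD. MYC stood at 114 and 107 CPM in TAL1-control, 134 and 142 in TAL1-KD, 294 and 297 in J4-control and 28.5 and 25.6 in J4-2uM. GSK-J4 brought both libraries far below every other library, a log2 change of -3.44 (SE 0.044), whereas the TAL1-KD libraries were slightly above their controls by 0.30 (SE 0.078). The difference was 3.77 (SE 0.099, edgeR adjusted p 1.9e-09). Its partner MAX rose by 0.26 and 0.30, with no called difference. MXD1, a repressor that competes with MYC for MAX, rose by 1.00 and 1.46, a difference of -0.43. MNT, another such repressor, rose by 0.82 in TAL1-KD and fell by 0.21 with GSK-J4, and MXD3 had a difference of -1.16. Over the 11 genes of the network 7 had a higher and 2 a lower difference, and the list median of 0.31 became -0.034 under library totals.

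Protein genes of the cytosolic ribosome itself moved by less but nearly all in one sense. Of 73 tested, 71 had a higher difference and 0 a lower one, with a median of 0.71. In the TAL1-labelled comparison 55 rose and 0 fell, and with GSK-J4 53 fell and 4 rose, so that 36 had opposite calls. RPL24 changed by 0.89 and -0.44, RPL38 by 0.92 and -0.34, RPL7A by 0.67 and -0.55, RPL6 by 0.81 and -0.30 and RPS7 by 0.45 and -0.49 in the TAL1-labelled comparison and with GSK-J4. Under library totals 52 of the 73 kept a called higher difference. These short genes have many processed pseudogenes, and how reads with several positions were counted is not given in the sources used here. Aminoacyl-tRNA synthetases, which charge tRNAs, had 28 higher and 3 lower differences of 37 (median 0.49), led by VARS (0.78 and -1.04), MARS2 (0.39 and -1.15) and EARS2 (0.19 and -1.18), the last of which was called only with GSK-J4.

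**Figure D3:**
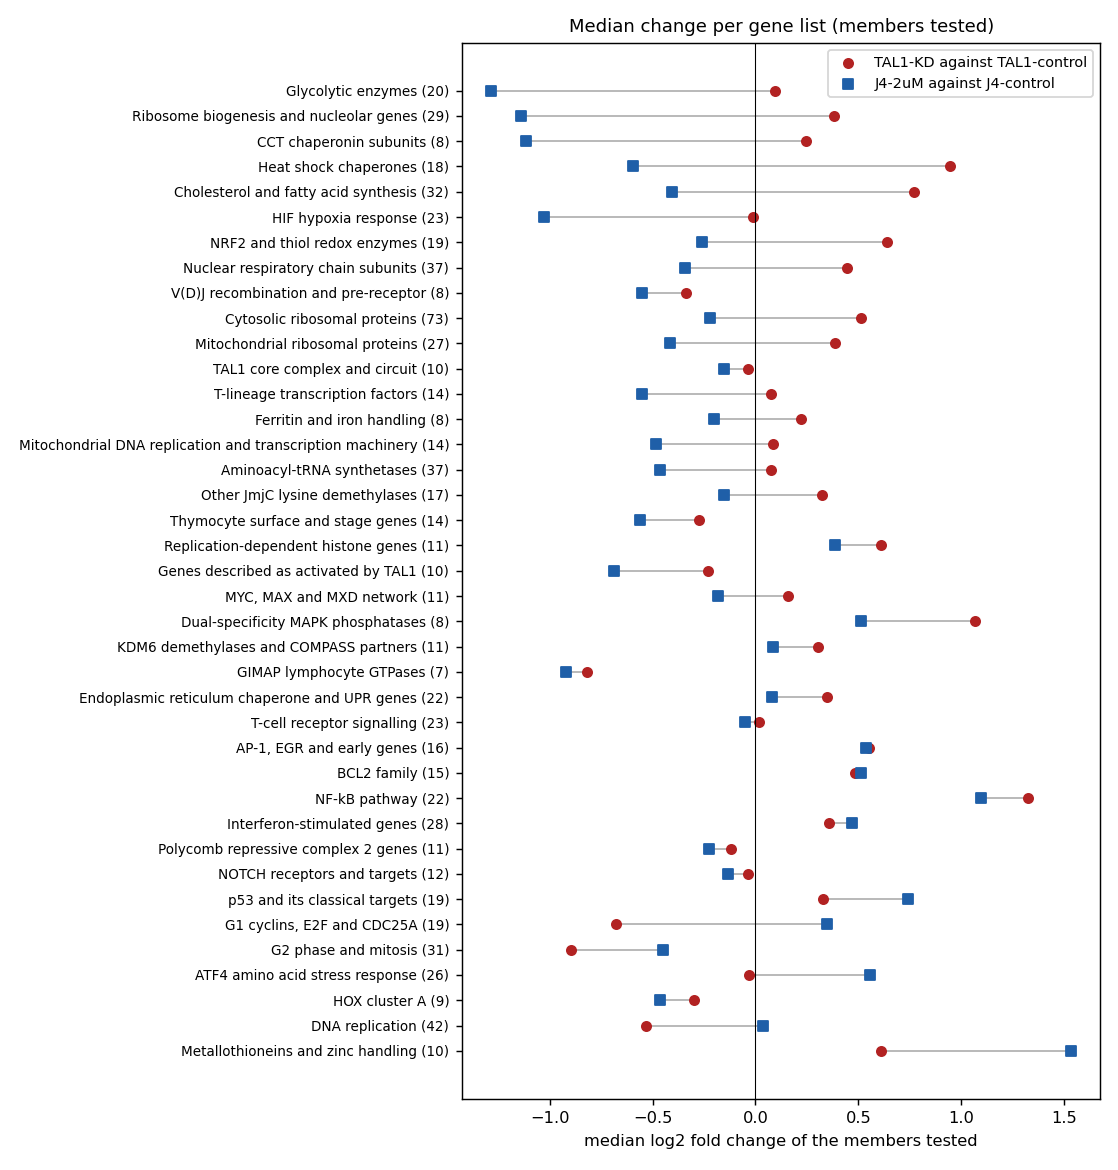
Median log2 fold change of the tested members of gene lists in the TAL1-labelled comparison (red circles) and with GSK-J4 (blue squares), ordered by median difference. Cell type markers and the lists with the fewest members tested are left out. Numbers in brackets are members tested. Glycolysis, ribosome biogenesis, chaperone and sterol lists lie apart at the top, the NF-kB and AP-1 lists lie close together, and cell cycle lists lie apart in the opposite order.

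Nuclear genes for the mitochondrion also lay mostly higher in the difference. Of 37 respiratory chain subunits 30 had a higher difference and 0 a lower one (median 0.77), and 19 had opposite calls. All 9 subunits of complex IV and all 5 of ATP synthase had a higher difference, as did 9 of 13 in complex I, 5 of 6 in complex III and 2 of 4 in complex II. COX7B, a complex IV subunit, stood at 40.8 and 41.6 CPM in TAL1-control, 90.4 and 114 in TAL1-KD, 70.7 and 70.6 in J4-control and 53.6 and 50.6 in J4-2uM. It rose by 1.29 in TAL1-KD and fell by 0.43 with GSK-J4, without overlap between treated and control libraries. NDUFA2, NDUFB3 and NDUFA4 had differences of 1.59, 1.50 and 1.46, and UQCRH one of 1.13. Mitochondrial ribosomal proteins had 21 higher and 0 lower differences of 27, with MRPL20 (0.82 and -0.81) and MRPL24 (0.39 and -1.07) among those called in opposite directions. Of 14 factors that copy and transcribe mitochondrial DNA, 10 had a higher difference and 1 a lower one. TWNK, the mitochondrial DNA helicase, stood at 18.7 and 18.3 CPM in TAL1-control, 38.5 and 39.9 in TAL1-KD, 43.7 and 43.1 in J4-control and 15.2 and 12.5 in J4-2uM. It rose by 1.06 and fell by 1.64, a difference of 2.73 (SE 0.12), and TFB2M, POLG and POLRMT had opposite calls too.

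Reads that carry mitochondrial sequence separated the responses more widely than any list above. Nuclear pseudogenes of mitochondrial protein genes are old copies of mitochondrial DNA in the chromosomes, so they share sequence with the true mitochondrial transcripts and their reads cannot be told apart from those. They and the next family were chosen after their values were seen. Of 76 listed by the deposited tables, 24 were tested, and in all 24 the difference was higher, with a median of 5.80. They took 2.36% and 2.25% of counted reads in TAL1-control, 1.13% and 1.09% in TAL1-KD, 2.51% and 2.59% in J4-control, and 0.0311% and 0.0277% in J4-2uM. With GSK-J4 both libraries thus lay far below every other library, and TAL1-KD lay below its control by a smaller step. MTCO3P12, a copy of the cytochrome c oxidase subunit 3 gene, stood at 1948 and 1910.3 CPM in TAL1-control, 1314 and 1433 in TAL1-KD, 2305 and 2429 in J4-control and 20.2 and 17.4 in J4-2uM. It fell by 0.51 in TAL1-KD and fell by 6.97 with GSK-J4 on the log2 scale, a difference of 6.48 (SE 0.14). MTATP8P1, MTND5P11, MTND4LP30, MTCYBP18 and MTND1P23 were also among the 8 largest higher differences outside the opposite calls, from 6.39 to 6.81. The other 2 were MTND4LP1, with 106, 92, 44 and 58 reads in the TAL1 libraries, 106 and 115 in J4-control and 0 and 1 in J4-2uM, and MTND6P4, with 4 and 0 reads in J4-2uM, for which no fold is given.

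The MTRNR2L genes, nuclear copies of the mitochondrial 16S ribosomal RNA gene with a humanin-like reading frame, parted from those pseudogenes in TAL1-KD. Their share of counted reads was 0.0846% and 0.0879% in TAL1-control, 0.410% and 0.414% in TAL1-KD, 0.0448% and 0.0443% in J4-control and 0.00472% and 0.00497% in J4-2uM. Of the 9 tested 8 rose in TAL1-KD and 7 fell with GSK-J4, and those 7 had opposite calls. MTRNR2L12 stood at 369.8 and 392 CPM in TAL1-control, 1955 and 2022 in TAL1-KD, 189 and 187 in J4-control and 17.1 and 17.9 in J4-2uM, a difference of 5.81 (SE 0.10). MTRNR2L9, MTRNR2L2, MTRNR2L8, MTRNR2L1, MTRNR2L10 and MTRNR2L6 had differences of 5.57, 5.99, 5.78, 4.64, 4.41 and 4.51. The copies are nearly identical in sequence, so their members are not separate measurements. Leaving both families out before scaling changed the counts of called differences to 4760 higher and 5014 lower.

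**Figure D4:**
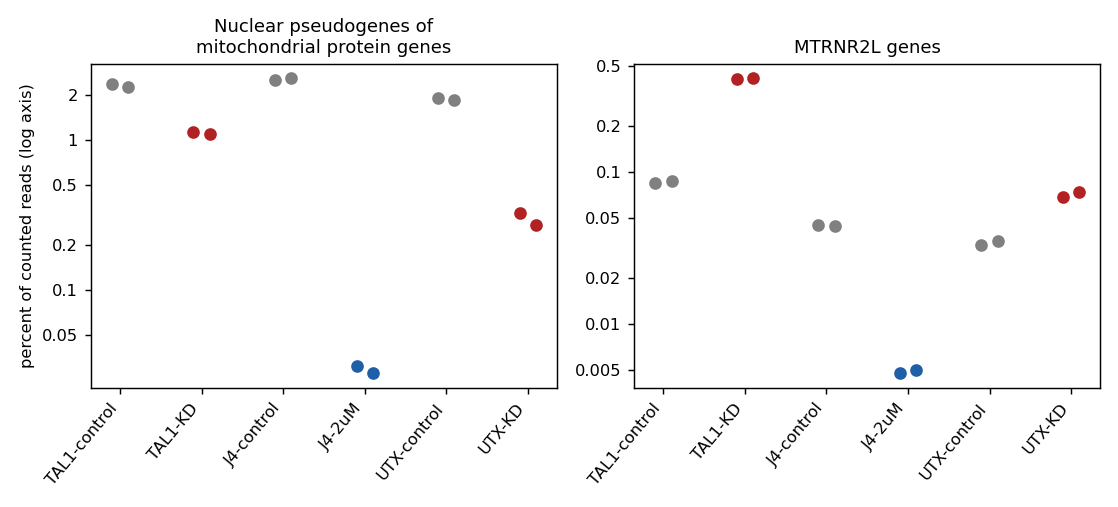
Share of counted reads per library, in percent on log axes, on nuclear pseudogenes of mitochondrial protein genes (left) and on MTRNR2L genes (right), with 2 libraries per group. Pseudogene reads drop from 2.51% and 2.59% to 0.0311% and 0.0277% with GSK-J4, while MTRNR2L reads rise in TAL1-KD and drop in J4-2uM.

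Glycolytic genes fell with GSK-J4, and most did not pass the test in the TAL1-labelled comparison. Of 20 genes tested 17 had a higher and 2 a lower difference, with a median of 1.58. With GSK-J4 17 fell and 3 rose (median -1.29), and in the TAL1-labelled comparison 5 rose and 3 fell (median 0.096). PGK1, phosphoglycerate kinase, stood at 485 and 592 CPM in TAL1-control, 565 and 609 in TAL1-KD, 1363 and 1308 in J4-control and 355 and 338 in J4-2uM. It fell by 1.94 with GSK-J4, and its TAL1-labelled change of 0.10 was not called. HK2, a hexokinase, and ENO1, enolase, changed by -2.55 and -1.92 with GSK-J4, and the glucose transporter gene SLC2A1 by -1.89. Their TAL1-labelled changes of -0.33, 0.25 and -0.015 did not pass the test. J4-control lay above TAL1-control in both libraries for 18 of the 20 genes. The hypoxia response list shares part of these genes, and 19 of its 23 members had a higher difference and 1 a lower one (median 1.02). BHLHE40, a repressor of the clock family, rose by 1.79 and fell by 1.15, and DDIT4, an inhibitor of mTORC1, rose by 0.57 and fell by 1.73. PFKFB4, PFKFB3 and the prolyl hydroxylase gene EGLN3 fell with GSK-J4 (log2 changes of -2.20, -1.26 and -1.88) without a called TAL1-labelled change.

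Sterol and fatty acid synthesis genes mostly rose in TAL1-KD and fell with GSK-J4. Of 32 genes tested 30 had a higher difference and 0 a lower one (median 1.21), and 19 had opposite calls. In the TAL1-labelled comparison 26 rose and 1 fell, and with GSK-J4 24 fell and 3 rose. FASN, fatty acid synthase, stood at 528 and 606 CPM in TAL1-control, 898 and 1254 in TAL1-KD, 1008 and 1002 in J4-control and 296 and 316 in J4-2uM. Treated and control libraries did not overlap in either comparison, and the difference was 2.64 (SE 0.19, edgeR adjusted p 1.9e-06). HMGCS1, an early enzyme of the mevalonate pathway, changed by 0.88 and -1.32. LSS, which closes the sterol ring, changed by 0.55 and -1.61. INSIG1, which retains the SREBP activators in the endoplasmic reticulum, changed by 0.89 and -0.75. The 4 regulators of the list all had a higher difference. Serum differed between the comparisons, and its part in these levels was not tested.

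Redox enzymes mostly had a higher difference, and both ferritin chains rose in both comparisons. Of 19 NRF2 and thiol enzymes 14 had a higher and 2 a lower difference, with 8 opposite calls. TXN, thioredoxin, changed by 1.30 and -0.59, and PGD, which makes NADPH, by 0.88 and -0.79. GCLC, the first enzyme of glutathione synthesis, changed by 0.69 and -0.26, and the regulator MAFG rose in both by 0.85 and 0.33. The list's most negative fitted difference, -3.78 (SE 1.23, edgeR adjusted p 0.023), was that of HMOX1, which breaks down haem and was singled out after its values were seen. It rests on few reads: 7 and 1 in TAL1-control, 3 and 6 in TAL1-KD, 0 and 2 in J4-control and 27 and 23 in J4-2uM. SLC7A11, the cystine transporter, was the other member with a lower difference (-0.55). FTL, the ferritin light chain that stores iron, stood at 344 and 374 CPM in TAL1-control, 1937 and 2328 in TAL1-KD, 547 and 552 in J4-control and 871 and 800.4 in J4-2uM. It rose in both comparisons, by 2.55 in TAL1-KD and by 0.61 with GSK-J4, a difference of 1.96 (SE 0.14). The heavy chain FTH1 rose by 1.67 and 0.62. TFRC, the transferrin receptor that imports iron, moved apart: it rose by 1.32 and fell by 0.47.

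Metallothioneins, small proteins that bind zinc and copper, rose far more with GSK-J4. MT2A stood at 9.92 and 10.6 CPM in TAL1-control, 16.1 and 18.5 in TAL1-KD, 21.6 and 22.7 in J4-control and 205 and 140.0 in J4-2uM. Both J4-2uM libraries lay well above all others, and TAL1-KD rose above its control by a smaller step, 0.73 against 2.97, a difference of -2.21 (SE 0.22). MT1X stood at 1.69 and 1.77 CPM in TAL1-control, 3.80 and 3.60 in TAL1-KD, 4.31 and 4.76 in J4-control and 44.0 and 31.3 in J4-2uM and changed by 1.07 and 3.05. All 4 metallothioneins tested had a lower difference and rose with GSK-J4. SLC30A1, which exports zinc, rose by 0.98 and 2.60, while SLC39A10, which imports it, rose by 0.45 in TAL1-KD and fell by 0.53 with GSK-J4. The list of 10 tested had 3 higher and 5 lower differences, and its median of -0.76 became 0.034 when genes under a mean of 50 normalised reads were left out. The 250 bases before the start of MT1X (chr16:56682220-56682469, plus strand, GRCh38.p14) are shown for the metal response element cores TGCACNC and TGCGCNC, on either strand, in capitals.
MT1X: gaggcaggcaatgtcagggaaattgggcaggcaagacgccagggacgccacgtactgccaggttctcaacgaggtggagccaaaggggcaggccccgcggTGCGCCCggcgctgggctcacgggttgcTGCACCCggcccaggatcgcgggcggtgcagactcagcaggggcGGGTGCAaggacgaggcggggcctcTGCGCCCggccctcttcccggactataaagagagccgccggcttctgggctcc
There were 4 matches. The core occurred in 4 of the 9 promoters of the list found in the RefSeq table (44.4%) and in 24.7% of all its promoters.

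Amino acid stress genes under ATF4 lay lower in the difference. Of 26 tested 17 had a lower and 4 a higher difference (median -0.54). With GSK-J4 14 rose and 7 fell, and in the TAL1-labelled comparison 8 rose and 11 fell. TRIB3, a pseudokinase induced by amino acid shortage, stood at 409 and 405 CPM in TAL1-control, 346 and 269.9 in TAL1-KD, 70.9 and 70.2 in J4-control and 235 and 213 in J4-2uM. It changed by -0.42 and 1.67, a difference of -2.07 (SE 0.14), but J4-control began far below TAL1-control. Both J4-control libraries lay below both TAL1-control libraries, by any margin, for 25 of the 26 genes. ASNS, asparagine synthetase, and SESN2, a leucine sensor, changed by -0.35 and 1.14 and by -0.46 and 0.81. The transcription factor gene ATF5 rose by 0.49 and 2.33, and CEBPB changed by -0.07 and 1.16, with a call only for GSK-J4. SLC7A5, a leucine importer, was an exception, rising by 0.36 and falling by 0.79. Chaperones of the endoplasmic reticulum went the other way: 11 of 14 had a higher and 1 a lower difference, among them HSPA5 (1.06) and SDF2L1 (1.42), whereas 0 of the 8 regulators of the unfolded protein response had a higher and 3 a lower one, with EIF2AK3 at -0.60. The median of that whole list, 0.17, became -0.17 under library totals.

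DNA replication genes mostly fell in TAL1-KD and moved both ways with GSK-J4. Of 42 genes 33 had a lower and 2 a higher difference (median -0.68), and 16 fell in TAL1-KD while rising with GSK-J4, against 7.91% of all genes. In the TAL1-labelled comparison 34 fell and 0 rose; with GSK-J4 19 rose and 14 fell. CDC6, which loads the replicative helicase, stood at 175 and 179.9 CPM in TAL1-control, 133 and 141 in TAL1-KD, 110.2 and 112 in J4-control and 177 and 168 in J4-2uM. TAL1-KD lay below its control and J4-2uM above its own (-0.39 and 0.64). RFC2, part of the clamp loader, changed by -0.77 and 0.80, POLD3 and POLA2, polymerase subunits, by -0.49 and 1.02 and by -0.48 and 0.57, and the thymidine kinase gene TK1 by -1.10 and 0.42. PRIM1, a primase subunit, fell by 1.38 in TAL1-KD and rose by 0.12 with GSK-J4. All 6 genes of nucleotide supply had a lower difference.

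The E2F and RB genes, which time S phase, mostly fell in TAL1-KD and moved both ways with GSK-J4. Of 10 tested, 8 fell and 1 rose in TAL1-KD, and 6 fell and 4 rose with GSK-J4. Falls in TAL1-KD joined to rises with GSK-J4 numbered 4. E2F2 stood at 363 and 352 CPM in TAL1-control, 162 and 189 in TAL1-KD, 104 and 103 in J4-control and 273 and 262 in J4-2uM. It fell by 1.05 and rose by 1.37, a difference of -2.39 (SE 0.11, edgeR adjusted p 1.3e-07), and again J4-control was the lowest group. E2F1 changed by -0.77 and 0.48, the repressive members E2F7 and E2F8 by -1.03 and 0.35 and by -1.23 and 0.80, and the G1/S cyclin gene CCNE2 by -0.95 and 0.60. Over the 19 genes of G1 and its E2F factors 9 had a lower and 4 a higher difference. Mitotic genes mostly fell in both comparisons. In TAL1-KD 27 of 31 fell and 0 rose, and with GSK-J4 19 fell and 6 rose. The difference was lower for 19 and higher for 4 (median -0.41). NDC80 of the kinetochore changed by -1.45 and 0.08, with a TAL1-labelled call alone, and HMMR of the spindle fell in both (-2.43 and -0.93). AURKB, a mitotic kinase, fell by 0.77 and rose by 0.48. CCNB1, the mitotic cyclin, was an exception, falling further with GSK-J4 (-1.22 and -2.27). The cell cycle homology region core TTTGAA or TTCGAA lay within 250 bases before 12 of 26 mitotic genes in the table (46.2%), 2 of 35 replication genes (5.71%) and 14.6% of all promoters.

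Genes of p53 and its classical targets mostly rose in each comparison, 11 of 19 in TAL1-KD and 14 of 19 with GSK-J4. CDKN1A, the inhibitor p21, stood at 11.2 and 12.3 CPM in TAL1-control, 40.5 and 54.0 in TAL1-KD, 6.97 and 6.70 in J4-control and 27.4 and 25.5 in J4-2uM. It rose in each comparison, by 1.99 and 1.96, and its difference of 0.055 had a 95% interval from -0.33 to 0.45. CDKN1C and CDKN2D changed by 0.21 and 1.04 and by -0.40 and 1.09, with calls for GSK-J4 alone. CDKN2C fell in both (-1.63 and -0.42). Of the 19 p53 genes 8 had a lower and 0 a higher difference. BBC3, the death gene PUMA, rose by 1.23 and 2.68, GADD45A by 0.53 and 1.19, and TP53INP1 by 0.88 and 1.44. FDXR changed by 0.13 and 1.37, with a call for GSK-J4 alone, and BAX rose by 0.22 and 0.76. Within the BCL2 family 4 of 15 were higher and 6 lower, beside 26.3% and 27.6% of all genes tested. BIK and BID rose in TAL1-KD and fell with GSK-J4 (0.88 and -0.61, then 0.50 and -0.44). The survival gene BCL2 did the reverse (-0.70 and 0.23).

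T-lineage regulators mostly had a higher difference. Of 14 T-lineage transcription factors 11 had a higher and 1 a lower difference, and 10 fell with GSK-J4 against 4 in TAL1-KD. BCL11B, TCF7, SATB1 and RUNX1, which establish T-cell identity, changed with GSK-J4 by -0.96, -1.09, -0.79 and -1.20, beside TAL1-labelled values of 0.20, -0.33, 0.077 and -0.29. In the TAL1 complex and circuit 7 of 10 genes had a higher difference and 1 a lower one. GATA3 rose in both, by 1.46 and 0.77. MYB changed by -0.035 and -0.62 and LMO1 by -0.39 and -1.28, and the bridging cofactor LDB1 rose by 0.44 and 0.11. LYL1, a close relative of TAL1, was the lower one, at -1.40 and 0.20. LMO2 had 10, 10, 5 and 1 reads in the TAL1 libraries and 6, 6, 11 and 3 in those of GSK-J4, too few for a fold change. Of 10 genes described as activated by TAL1, 4 had a higher difference and 0 a lower one. ALDH1A2, a retinaldehyde dehydrogenase gene, fell in both and further with GSK-J4 (-0.57 and -2.02), and the pseudokinase gene TRIB2 changed by -0.049 and -1.23, with a call for GSK-J4 alone. ARID5B rose by 0.29 and fell by 0.45. CDK6, a G1 kinase, and ETV6, an ETS repressor, fell in both (-0.59 and -1.09, then -0.81 and -0.93), and the difference was called for CDK6 alone of the pair.

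The genes that cut and join antigen receptor segments fell in both comparisons. For the counts in this paragraph, 26.3% of all genes tested had a higher and 27.6% a lower difference. The list of these and of pre-receptor genes had 5 higher and 2 lower differences of 8. RAG2, a subunit of the V(D)J recombinase, stood at 12.4 and 11.5 CPM in TAL1-control, 3.14 and 1.49 in TAL1-KD, 22.8 and 22.1 in J4-control and 1.41 and 1.43 in J4-2uM. It fell in both, with log2 fold changes of -2.39 and -3.97 and a difference of 1.61 (SE 0.32), and its partner RAG1 fell too (-0.73 and -1.73). DNTT, which adds bases at the joints, fell further in TAL1-KD (-0.88 and -0.48). PTCRA, the pre-T alpha chain, fell in TAL1-KD and rose with GSK-J4 (-0.68 and 0.93). So did HES1, a NOTCH target (-0.64 and 0.60), at levels in J4-control far below those in TAL1-control (7.37 and 7.13 against 58.2 and 64.5 CPM). The NOTCH list, which also counts MYC, gave no common direction, with 5 higher and 3 lower of 12, and its median of -0.092 lay close to that of all genes. NOTCH1 had a difference of 0.26 that became -0.083 under library totals, and NOTCH3 one of -0.31 that was not called. Surface genes of thymocytes had 8 higher and 2 lower differences of 14, with CD1D at 0.40 and -1.06 and CD38 at -1.28 and 0.32. In T-cell receptor signalling 10 were higher and 3 lower of 23, with THEMIS at 0.86 and -0.59, SH2D2A at -0.86 and 0.58 and RASGRP1 at 0.36 and -0.36 called in opposite directions, and the median of 0.14 became -0.20 under library totals. CD3D and the zeta chain gene CD247 had differences of 0.97 and 0.88, the first from a rise in TAL1-KD and the other from a fall with GSK-J4. ID1, which blocks E proteins, rose by 0.47 and fell by 0.94, while ID2 and ID3 rose in both.

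Chromatin genes differed modestly. For the counts in this paragraph, 26.3% of all genes tested had a higher and 27.6% a lower difference. Of 17 other JmjC demethylases 13 had a higher and 1 a lower difference, with JMJD6 (1.33 and -0.15), KDM5B (0.51 and -0.54) and KDM3A (0.66 and -0.33) called in opposite directions. Of 11 Polycomb repressive complex 2 genes 2 were higher and 5 lower. Its methyltransferase EZH2 fell by 0.81 in TAL1-KD and its GSK-J4 change was -0.03. Its partners EED and SUZ12 fell in both (-0.80 and -0.23, then -0.54 and -0.08), and JARID2, which guides the complex, rose by 0.76 and fell by 0.29. KDM6 genes and their COMPASS partners had 5 higher and 4 lower differences of 11, with ASH2L at -0.73, and a median of 0.24 that became -0.11 under library totals. Of 9 HOXA genes tested 3 were higher and 3 lower: HOXA13 fell in both (-3.01 and -0.58), HOXA3 in TAL1-KD alone (-1.23 and 0.022), and HOXA7 rose by 0.31 and fell by 0.66. Of 11 replication-dependent histone genes 1 was higher. Of 28 interferon-stimulated genes 8 were higher and 7 lower, near the shares of all genes, so the list gave no common direction. Among its members IRF7 rose by 1.08 and 2.48. XAF1 and IFI35 fell in TAL1-KD and rose with GSK-J4 (-0.65 and 0.90, then -0.67 and 0.80). Among alpha-arrestins ARRDC3 rose by 2.77 and 1.51, ARRDC2 by 1.02 and 0.31, and ARRDC4 fell in both (-2.54 and -0.58).

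A set of genes responded alike under the TMM scaling. With the 95% interval of the difference inside -0.3 to 0.3 and a call in the same direction in each comparison, 272 genes (1.64% of 16573) rose and 161 (0.971%) fell alike. RELB, a subunit of the NF-kB transcription factors, led the rising ones and stood at 9.61 and 9.01 CPM in TAL1-control, 95.6 and 106 in TAL1-KD, 7.78 and 6.75 in J4-control and 82.0 and 76.1 in J4-2uM. It rose in both, by 3.41 (SE 0.095) and 3.46 (SE 0.059), and the 95% interval of its difference ran from -0.28 to 0.25. Under library totals that difference was -0.36 (edgeR adjusted p 0.024). DNAJB2, OLFM2, KLHL24, TMEM59 and HERPUD1 followed with TAL1-labelled changes of 1.56, 1.42, 1.08, 0.92 and 0.91 beside 1.57, 1.43, 1.19, 1.00 and 1.00 with GSK-J4. KNSTRN, which helps spindles attach, stood at 89.1 and 95.5 CPM in TAL1-control, 29.7 and 32.6 in TAL1-KD, 100.4 and 101 in J4-control and 32.9 and 34.6 in J4-2uM. All 4 treated libraries lay below their controls. ZNF789, ATG10, JAGN1 and HNRNPD also fell alike, with log2 changes of -1.23, -1.19, -0.90 and -0.84 in TAL1-KD and -1.22, -1.18, -0.86 and -0.85 with GSK-J4. Which genes count as alike depends on the scaling. Under library totals the median difference of all genes was -0.38, outside the bounds of -0.3 to 0.3. The differences of DNAJB2, KNSTRN and HNRNPD changed sign there, and the counts of like genes were not repeated on that scale. The rule also needs a narrow interval, so its shares leave out genes measured less precisely.

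NF-kB genes as a list rose in both comparisons: 16 of 22 rose and 1 fell in TAL1-KD, and 19 rose and 2 fell with GSK-J4, with medians of 1.32 and 1.10. The difference was higher for 5, lower for 5 and not called for 12, including all 5 subunits. Over all genes tested 26.3% were higher and 27.6% lower. The list's median difference was -0.042, which became 0.021 after removal of GC and length trends. Both values are on the TMM scale. Under library totals the median difference of all genes was -0.38, and the subunit RELB was called lower. The inhibitors differed in size. NFKBIA stood at 36.1 and 37.8 CPM in TAL1-control, 146 and 174 in TAL1-KD, 20.0 and 21.5 in J4-control and 49.1 and 48.7 in J4-2uM and rose further in TAL1-KD (2.09 and 1.24), as did NFKBIE (1.21 and 0.29), and BCL3 rose further with GSK-J4 (2.32 and 3.73). Of the targets, LTA changed by 0.17 and 1.41 and TRAF1 by -1.11 and 0.083. The NF-kB motif (GGG and CC with N at 5 positions between them) was found before 16 of 19 of these genes in the table (84.2%) and before 53.7% of all. Of 16 AP-1 and early genes, 4 were higher and 4 lower, near the shares of all genes. JUNB and JUND rose in both (1.22 and 0.35, then 0.82 and 1.38), and ATF3 rose with GSK-J4 alone (-0.13 and 2.27). The median of that list, 0.11, became -0.24 under library totals, and TGANTCA was found before 0 of 14 of the list and 6.6% of all promoters. MAPK phosphatases rose in both, 7 of 8 in TAL1-KD and 6 with GSK-J4, with DUSP5 and DUSP1 further in TAL1-KD (1.77 and 0.32, then 1.63 and 0.45) and DUSP8 further with GSK-J4 (2.74 and 4.34). DUSP2 rose by 0.90 and fell by 0.76. The list had a median difference of 0.30 that became -0.043 under library totals. GIMAP lymphocyte GTPases fell in both, 5 of 7 and 7 of 7, with 1 called difference, in GIMAP5 (0.80). Their list median of 0.18 became -0.17 under library totals.

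The UTX-labelled libraries, which have controls of their own, give another reading of the opposite genes. Of the 1315 that rose in TAL1-KD and fell with GSK-J4, 673 fell and 185 rose in UTX-KD, against 25.3% and 25.2% of all 16847 genes tested there. Of the 1311 in the reverse class, 449 rose and 230 fell. Among genes that moved alike but further in the TAL1-labelled comparison the UTX-labelled calls were even, 373 higher and 370 lower. By list, UTX-KD lowered 28 of 29 ribosome biogenesis genes, 8 of 8 CCT subunits, 29 of 32 sterol and fatty acid genes, 18 of 20 glycolytic genes and 12 of 18 heat shock chaperones and regulators, the direction most of them took with GSK-J4. It raised 49 of 73 cytosolic ribosomal proteins and lowered 39 of 42 replication genes, the direction most of them took in TAL1-KD, and raised 25 of 26 ATF4 genes. Pseudogenes of mitochondrial protein genes fell in 24 of 24, and MTRNR2L genes rose in 8. UTX-KD was given doxycycline like TAL1-KD, and GSK-J4 cells were not. Whether the UTX-labelled response is nearer to either of the others was not tested.

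**Figure D5:**
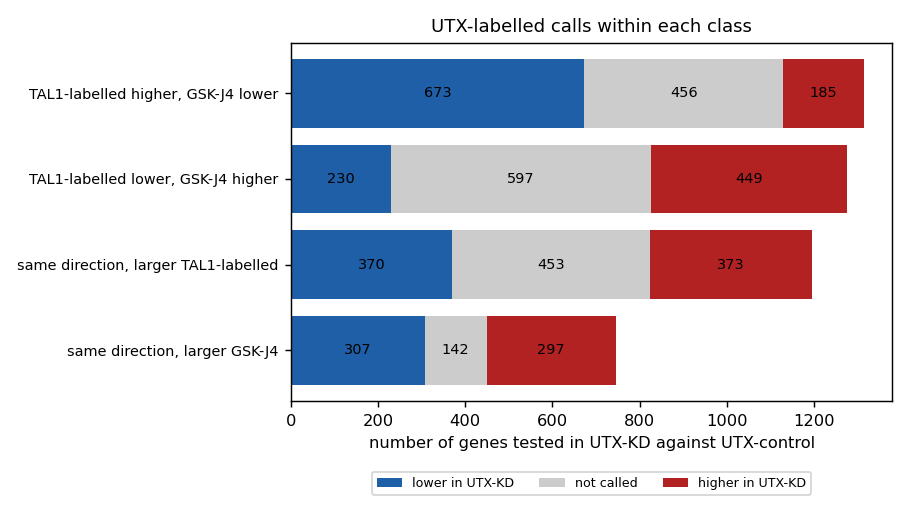
Number of genes called lower, not called or called higher in UTX-KD against UTX-control within 4 classes of the response difference. In the class that rose in TAL1-KD and fell with GSK-J4, 673 genes were lower and 185 higher, and in the reverse class 230 were lower and 449 higher.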

How the data were processed

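Stranded poly(A) mRNA libraries of Jurkat cells were sequenced, and the deposited tables hold whole-number read counts per Ensembl gene and library. The submitters' processing notes name TopHat2 2.0.12, HTSeq 0.6.1p1, DESeq2 and build hg19; no roles, strand setting or rule for reads with several positions are given in the sources used here. The raw count columns of the TAL1-labelled and GSK-J4 tables were joined by gene ID, a gene absent from one table being set to 0. Of 33704 IDs, 25948 had a symbol, and of 857 list entries 841 were matched.

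The response difference was the interaction term of 1 fit over 8 libraries in R 4.3.3 with edgeR 4.0.16 (TMM factors, filterByExpr, quasi-likelihood test, Benjamini-Hochberg adjusted p under 0.05). Each comparison was also fitted on its own 4 libraries, and UTX-KD against UTX-control likewise. A standard error is the absolute log2 value over the square root of F. Depth of 55524079 reads or more leaves genes of a few reads imprecise, and the number of libraries, 2 a group, sets the precision of the rest. Alternatives used DESeq2 1.42.0 and limma 3.58.1. Promoters came from RefSeq (GRCh38.p14), another build than the counts, and were matched by symbol.

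Named genes were the 4 targets; per direction the 8 strongest opposite calls, the 8 largest other called differences and the 6 strongest like responses, at a mean normalised count of at least 50; and from each list up to 5 called members, any member of lists of 12 or fewer, and the leading member of each role. A few genes that the rule names are not reported here. HSPA6 and HMOX1 were chosen after their values were seen. The comparison and the lists were chosen with earlier results of these data known.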

Additional observations from a re-analysis of the deposited data

How the results depend on the processing

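Directions of single genes held under nearly all alternatives, while counts of classes moved with 1 library. Leaving out each library in turn gave 3998 to 5654 higher and 4109 to 5988 lower differences, 644 to 1788 and 805 to 1691 opposite calls (TAL1-labelled higher and lower), 723 to 2183 genes that moved further in the TAL1-labelled comparison and 269 to 1568 that moved further with GSK-J4. It gave 2431 to 5869 genes higher and 3094 to 6083 lower in the TAL1-labelled comparison, and 6056 to 6794 and 6002 to 6656 with GSK-J4. In UTX-KD it gave 92 to 239 higher and 325 to 970 lower among genes opposite with TAL1 higher, and 257 to 654 higher and 169 to 291 lower among the reverse. Where a group was left with 1 library, that library was assumed to vary like the others.

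Library totals in place of TMM, chosen after seeing the data, gave 2507 higher and 7692 lower differences, 572 and 2142 opposite calls, 120 and 256 UTX-labelled calls higher and lower in the first opposite class and 945 higher in the other. Signs turned there for DNAJB2 (-0.33), KNSTRN (-0.33), HNRNPD (-0.31), WDR5 (-0.11), DPY30 (-0.018), EZH1 (-0.30), MGA (-0.030), MLX (-0.034), MLXIP (-0.11), SLC11A2 (-0.077), NOTCH1 (-0.083) and CD28 (-0.20). KLHL24 became 0.27 after removal of GC and length trends, also 0.27 with the replicate block in that fit. At adjusted p under 0.01 there were 769 and 781 opposite calls, 639 and 282 genes moving further with TAL1 or with GSK-J4, 2872 and 3046 TAL1-labelled calls, and 79, 378, 188 and 137 UTX-labelled ones. DESeq2's test left 223 UTX-labelled higher calls in the reverse class. The cause of these shifts was not tested.

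Replicate numbers alone do not show whether libraries were paired, and the main fit used no pairing. Deviations of same-numbered libraries correlated across genes at 0.15 for TAL1 and -0.097 for GSK-J4. With 2 libraries a group these values cannot show or exclude pairing. A replicate block gave 4790 higher and 5031 lower differences and lost 4 and gained 5 calls among 321 named genes, with KDM6A lost (edgeR adjusted p 0.066). Genes with few reads, such as PRKAA2, LMO2 and ERG, are limited by depth.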

Other observations

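Some further gene families, chosen after their values were seen and so given without a test, lay to one side of the response difference. Of 37 proteasome subunits tested, 30 had a higher and 3 a lower difference, against 26.3% and 27.6% of all genes, and 23 rose in TAL1-KD and fell with GSK-J4 (family median 0.87). Of 22 TOMM and TIMM subunits, which import proteins into mitochondria, 18 were higher and 0 lower, and 11 had opposite calls (median 0.76). Ferritin heavy chain pseudogenes, which share sequence with FTH1, were higher in 6 of 10 and lower in 0, with medians of 1.65 in the TAL1-labelled comparison and 0.49 with GSK-J4.

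Other families lay lower. Of 11 voltage-gated calcium channel subunits 7 were lower and 0 higher, and 9 rose with GSK-J4 (median 1.31), while 2 rose in TAL1-KD. Of 8 synaptotagmins, calcium sensors of vesicle fusion, 7 were lower and 0 higher, and 6 rose with GSK-J4. Of 5 interferon-induced GBP GTPases 3 were lower, and all 5 rose with GSK-J4. MHC class I genes rose in all 7 tested in both comparisons, with medians of 1.17 in TAL1-KD and 2.07 with GSK-J4, and 3 had a lower difference.

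Transcript features also differed between the opposite classes. Genes that rose in TAL1-KD and fell with GSK-J4 had a median length of 2793.5 bases and a median GC content of 51.6%, those of the reverse class 3906 bases and 47.1%, and all genes tested 3045.5 bases and 48.9%. With GC and length trends removed from each library, 5402 genes were called higher and 4801 lower.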
